A study of Mus musculus with 2 samples.

Results

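Runs of close peaks are described here for phosphorylated HLXB9 in MIN6-4N cells, a mouse insulinoma line. On chromosomes 1 to 19, neighbouring peaks were joined when the gap between them was 1000 bp or less, and a run is a joined region of 3 or more peaks. Members were thus chosen by the measured starts and ends of the peaks alone. This gave 320 runs with 993 member peaks, which is 1.19% of the 83393 autosomal peaks and part of a list of 83676. The study sequenced 1 library of chromatin immunoprecipitated with a rabbit antibody against phosphorylated HB9 (anti-HB9PO4) and 1 input library with no antibody, both from MIN6-4N cells. All cells had been transfected with pcDNA3.1-myc-his-HLXB9, an expression plasmid, by lipofectamine 2000, and chromatin was taken 48 hours later. Both libraries thus carry the overexpressed factor, and the part of the signal that endogenous HLXB9 gives cannot be told apart. With 1 library on each side there is no replicate error, and tag numbers, hence the depth behind a peak, are unknown. Positions are mm9, and no gene or sequence is given because no mm9 annotation or genome was used here.

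HLXB9 (HB9, MNX1) belongs to the homeodomain transcription factors and is known for its part in the development of the pancreas and of motor neurons. Homeodomain proteins recognise short AT-rich DNA sites, and several sites can lie side by side in one regulatory region. A ChIP-seq peak is a stretch where sheared fragments pile up above background. Peaks that lie closer together than about the length of a fragment can share fragments, so close peaks need not be separate binding events.

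The score that the authors deposited for each peak was taken to be the caller's p-value as a negative log10, multiplied by 10. The lowest score, 30, then equals a p-value of 1e-03, and scores of 50 and 100 equal 1e-05 and 1e-10. Scores, widths and positions come from 1 round of calling, which also placed the peaks that define the runs. Comparisons of members with other peaks are therefore descriptions and carry no test. Intervals are 95%, reflect only counting error, and count every peak separately, although members of a run share a place. The peaks set beside the members were the 11464 single peaks, with no neighbour within 1000 bp, in the 272 windows of 1 Mb that held at least 1 member.

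Most runs were short. Of the 320 runs, 292 (91.2%) had 3 peaks, 24 had 4, 3 had 5 and 1 had 6. The list also held 4099 joined pairs and 74202 single peaks on the autosomes. A run spanned a median of 3504 bp from its first to its last base (interquartile range 2846 to 4378 bp), and the extremes were 1717 and 8137 bp. Peaks covered a median of 75.1% of the run (interquartile range 66.4% to 84.7%). In all, the runs spanned 1185 kb, of which 894 kb lay in peaks and 24.6% in the gaps. On the X chromosome, which the rule leaves out, the 281 peaks formed 3 pairs and no run.

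The 4 longest chains differed in how strength was spread over their peaks. The run with 6 peaks lay on chromosome 11 (96128618 to 96134834), and its scores in order of position were 31.1, 32.5, 48.2, 48.9, 45.2 and 76.7. It was weak at its left end and strongest in its last and widest peak of 1401 bp, and its gaps ran from 117 to 755 bp. A run of 5 peaks on chromosome 7 (12595596 to 12601360) had scores of 174.6, 32.3, 39.4, 88.2 and 96.3. Strong peaks thus stood at both of its ends with weak ones between them, and no gap was above 214 bp. On chromosome 9 (30749953 to 30754809) the 5 scores were 34.6, 33.6, 43.4, 34.0 and 81.8, so that only the last peak was above 50. The run of 5 on chromosome 15 (101627578 to 101635016) spanned 7439 bp, and all of its scores (36.9, 32.9, 37.3, 43.1 and 33.9) were near the limit of the list.

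**Figure D1:**
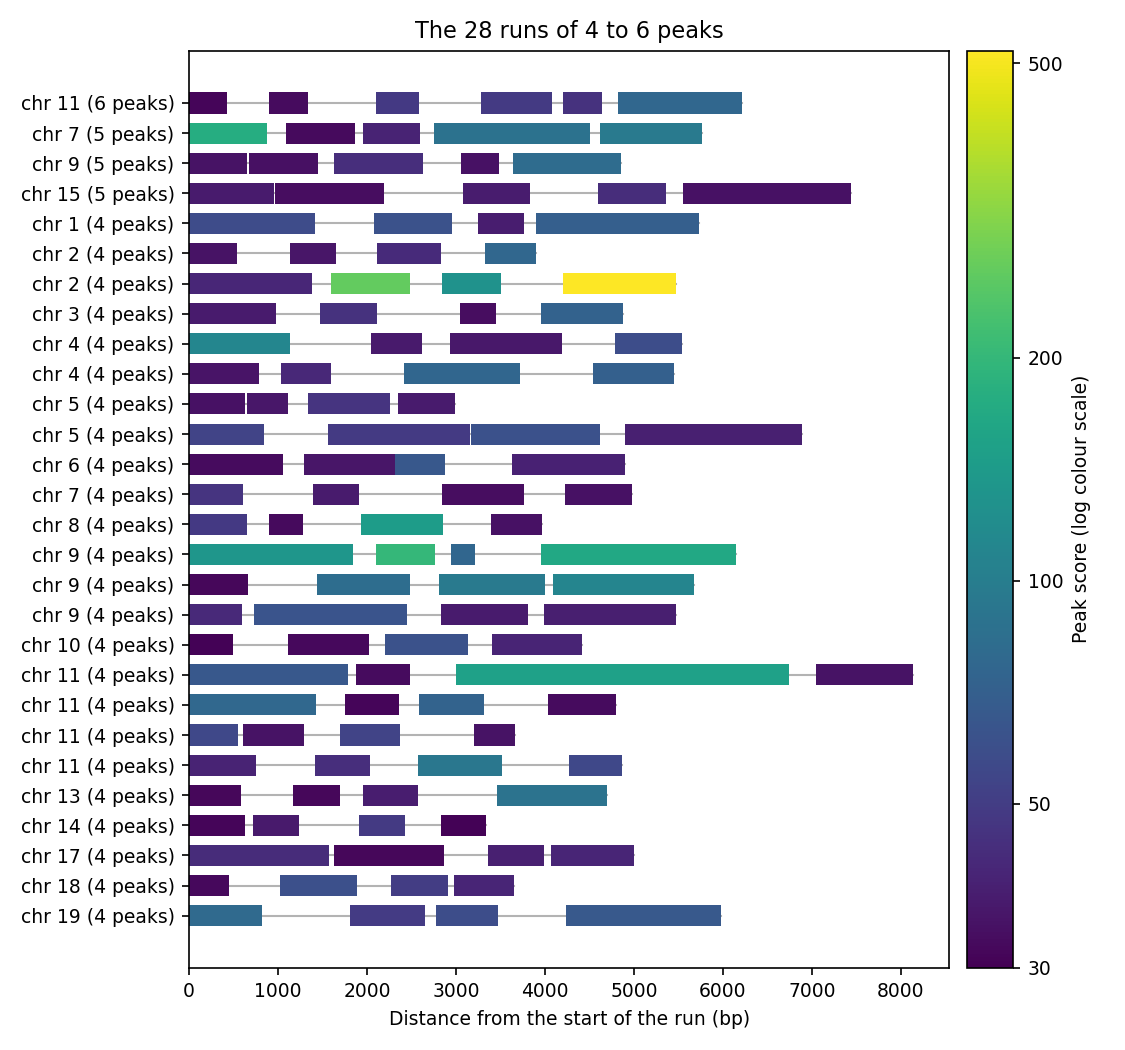
The 28 runs of 4 to 6 peaks, drawn to scale as distance in bp from the start of each run, with peaks as bars coloured by score on a log colour scale and gaps as grey lines. Bright bars are few: in the run of chromosome 2 that reaches a score of 520.1 all peaks but the leftmost are bright, and most other runs hold mainly dark bars near 30 to 50.

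In the middle of the range, members of runs looked like the single peaks around them. The median score was 40.1 in members (interval 39.2 to 41.4) and 39.96 in single peaks of the same windows (39.7 to 40.3), against 39.3 over all autosomal peaks. Scores below 40 made up 49.7% of members (46.6% to 52.9%) and 50.2% of those single peaks (49.3% to 51.1%). Window by window, the members' median score was above that of the single peaks in 134 windows and below it in 138. Scores of 50 or more were found in 284 members, or 28.6% (25.9% to 31.5%), against a background of 24.1% over all autosomal peaks and 26.4% (25.6% to 27.2%) of single peaks in the same windows. The intervals of the last and the first of these shares overlap. They count every peak separately, and whether the shares differ was not tested.

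In the upper tail of the scores, members had a larger share than single peaks. The score limit of 100 used here was chosen after seeing the data. Among members, 39 peaks had a score of at least 100, which is 3.93% (2.89% to 5.32%), against a background of 1.65% over all autosomal peaks. In single peaks of the same windows the share was 1.95% (1.71% to 2.21%) and in the 1800 peaks of joined pairs there it was 2.50% (1.87% to 3.33%). The intervals of members and single peaks did not overlap, whereas those of members and pairs did. These intervals count every peak separately, although the 39 peaks lay in 34 runs, and no difference was tested. Of the 39, 6 came from 2 runs that stood apart, on chromosomes 2 and 9, and without these runs the share was 3.35% (2.40% to 4.67%). When only gaps of at most 500 bp were joined, the share was 6.09% (4.06% to 9.05%), with 2.18% in the single peaks of the same windows. No run was left out in that setting, and parts of those 2 runs remained in it. Scores of 150 or more were found in 9 members (0.906%, interval 0.478% to 1.71%), against a background of 0.282% over all autosomal peaks. They were found in 31 of the single peaks (0.270%, 0.191% to 0.384%) and in 7 peaks of joined pairs in the same windows (0.389%, 0.189% to 0.801%). The intervals of members and pairs overlap, and 4 of those 9 members belong to the same 2 runs. Read the other way, 1.13% of autosomal peaks with a score from 30 to 40 were members of runs, as were 1.11% from 40 to 50 and 1.31% from 50 to 100. From 100 to 200 it was 2.80% (36 of 1285 peaks, interval 2.03% to 3.85%), and of the 94 peaks at 200 or more, 3 were members. All 3 belong to the same 2 runs on chromosomes 2 and 9. Over all autosomal peaks the share of members was 1.19%.

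**Figure D2:**
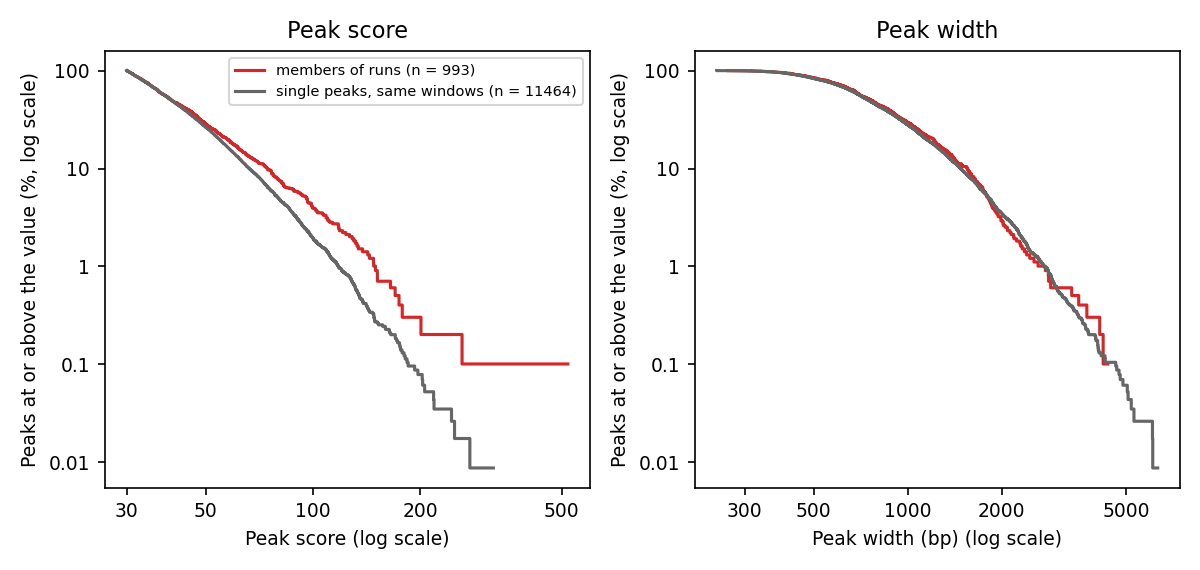
Percentage of peaks at or above each score (left) and each width in bp (right), for the 993 members of runs and the 11464 single peaks in the same windows, with all axes on a log scale. The score curves run together near the medians of 40.1 and 39.96 and part above a score of about 50, whereas the width curves stay close.

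Within a run, scores were uneven. The highest score of a run had a median of 55.6 (interquartile range 46.2 to 74.4) and the lowest a median of 33.3 (31.3 to 36.8), with a median ratio of 1.60. In 117 runs (36.6%) no peak reached a score of 50, in 135 (42.2%) exactly 1 did, and in 56 it was 2. Taken peak by peak, 28.6% of members reached 50, against 26.4% of single peaks in the same windows and 24.1% over all autosomal peaks. Groups of unrelated peaks were not set beside these counts, so they are not read as a trait of runs. In 7 runs (2.19%) every peak had a score of at least 50. The scores of the remaining peaks cannot exceed that of the best one, so they are partly bounded by it. In the 169 runs whose best peak scored from 50 to 100, the others had a median of 39.1. In the 34 runs with a best peak of 100 or more, that peak had a median of 125.3, and the 76 others had a median of 39.6 (interquartile range 34.3 to 59.8), with 51.3% of them below 40. Scores of neighbouring peaks inside runs had a Spearman rho of 0.049 over 673 neighbour pairs, and neighbouring single peaks in the same windows up to 50 kb apart had a rho of -0.012 over 9304. Both are descriptions across peaks of 1 pair of libraries, which are not independent replicates. For widths, rho was 0.29 inside runs and 0.30 between the single peaks, so neighbours inside runs and neighbouring single peaks resembled each other in width to a like degree.

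**Figure D3:**
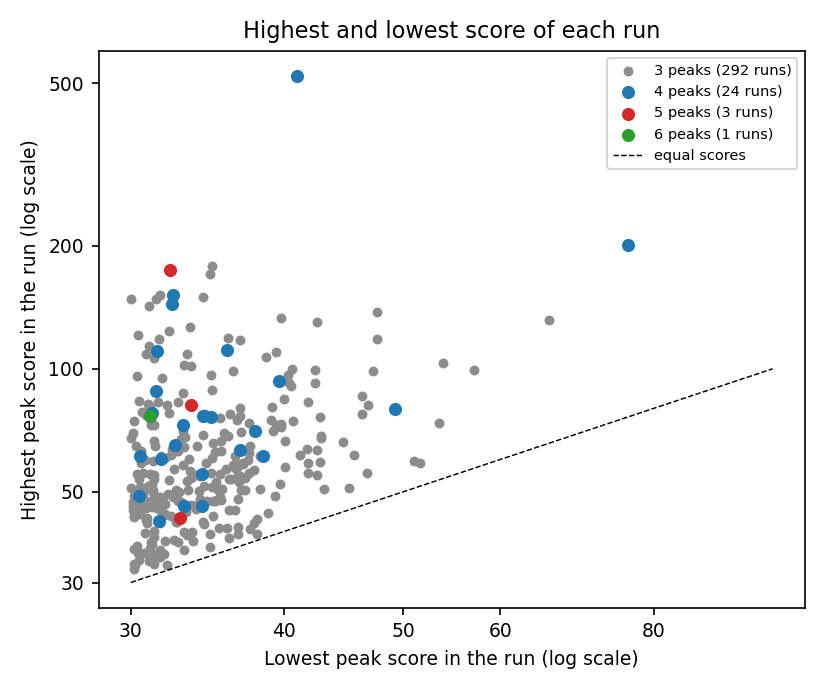
Lowest against highest peak score of each of the 320 runs, both on log axes, coloured by the number of peaks, with a dashed line at equal scores. Most points lie at the left edge, with a lowest score near the median of 33.3 and highest scores from 32.3 to 178.3, and the runs at 520.1 and 201.2 on the vertical axis stand apart.

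The strongest peak had no fixed place in runs of 3 peaks. In the 292 runs of 3, the highest score was in the left peak in 90 runs (30.8%, interval 25.8% to 36.3%), in the middle peak in 100 (34.2%, 29.0% to 39.9%) and in the right peak in 102 (34.9%, 29.7% to 40.6%). Median scores at these places were 38.6, 40.6 and 40.9. Their interquartile ranges overlapped widely, at 33.6 to 49.2, 34.8 to 53.1 and 34.5 to 51.6. The widest peak was the left one in 89 runs, the middle one in 95 and the right one in 108. In the 24 runs of 4, the highest score was at places 1 to 4 from the left in 6, 3, 9 and 6 runs. Median scores at these places were 41.3, 36.6, 55.7 and 40.3. The shares ranged from 12.5% (4.34% to 31.0%) at place 2 to 37.5% (21.2% to 57.3%) at place 3, with overlapping intervals. Left and right follow the numbering of the chromosome, since strand does not enter a peak list.

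The run with the highest score lay on chromosome 2 (98502107 to 98507579), with scores of 40.97, 262.4, 129.0 and 520.1 in 4 peaks. Its last peak, 1273 bp wide, was the only member above 300. Next came 4 peaks on chromosome 9 (2999914 to 3006059), with scores of 134.2, 201.2, 76.3 and 165.2. This run begins with the first peak of chromosome 9 in the list and holds the narrowest member, of 264 bp, as well as one of 2185 bp. The chromosome 2 run lay 627421 bp from the next peak on its left and 241893 bp from that on its right. Its window held only 6 peaks, against a median of 51 in windows with a run. Repeated sequence and known artefact regions were not looked up in either run, and whether these scores reflect binding was not tested. The runs of chromosomes 2 and 9 were the only ones with a score above 200, and each held 3 peaks of at least 100.

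The other runs with very high scores held weak peaks as well. On chromosome 8 (123607180 to 123610116) the scores were 35.0, 178.3 and 40.8, and on chromosome 11 (89160276 to 89163982) they were 34.8, 36.5 and 170.2. The longest run of all, on chromosome 11 (4957836 to 4965972), had scores of 64.9, 32.5, 151.8 and 34.6, and its strongest peak was 3749 bp wide. A central peak also dominated on chromosome 13 (55550829 to 55556001), with 36.2, 151.7 and 31.7, and on chromosome 5 (77284841 to 77289375), with 31.4, 148.1 and 44.3. On chromosome 17 (63229061 to 63232631) strength rose along the run, from 34.4 through 97.1 to 149.9. On chromosome 13 (108678968 to 108682037) the strong peak came at the left end, with 148.0, 34.4 and 30.03. The run of 5 on chromosome 7 described above, with a best score of 174.6, completes the 10 runs with the highest scores, together with those of chromosomes 2 and 9.

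The weakest peak of a run scored highest in the chromosome 9 run, at 76.3. It was next highest in 3 peaks on chromosome 13 (55931252 to 55934917), with scores of 131.8, 74.1 and 65.8. On chromosome 12 (50484057 to 50486883) a compact run of 2827 bp had 90.6, 57.1 and 99.5. A run on chromosome 8 (129104129 to 129109918) had 69.0, 53.9 and 103.2, with a weaker and narrower peak of 615 bp between broader ones. Scores of 57.3, 73.6 and 53.4 were found on chromosome 17 (34728678 to 34733213), and 53.3, 58.8 and 51.6 at another place on that chromosome (80536200 to 80540055). The scores on chromosome 11 (106054369 to 106058575) were nearly level, at 58.2, 51.0 and 59.3. These 7 runs are those in which every peak reached 50. The next 3 runs by lowest score, which complete the 10 named by that rule, were 4 peaks on chromosome 19 (59541749 to 59547732) with 79.8, 49.3, 57.9 and 65.8, a run on chromosome 1 (173428236 to 173434586) with 47.6, 137.9 and 79.2, and one on chromosome 10 (79849086 to 79855996) with 118.2, 47.6 and 96.6.

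Members were about as wide as the single peaks around them. Their median width was 762 bp (interval 733 to 788) against 747 bp (739 to 755) in single peaks of the same windows and 658 bp over all autosomal peaks. Peaks of joined pairs in these windows had 794 bp (771 to 822). By window, members had the larger median in 150 windows and the smaller in 122. At equal score the medians were also close: from 30 to 40 they were 679 bp (646 to 702) in members and 671 bp (663 to 681) in single peaks, and from 50 to 100 they were 930 bp (897 to 1029) and 920 bp (900 to 941). At 100 or more, members had 1339 bp (1134 to 1592) and single peaks 1435 bp (1310 to 1564). Score and width were related to a like degree in members (Spearman rho 0.35 across 993 peaks) and in these single peaks (0.32).

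Few runs contained a broad peak. A width of at least 2000 bp was found in 29 members of 28 runs, which is 2.92% of members (interval 2.04% to 4.16%), against a background of 1.74% over all autosomal peaks and 3.48% (3.16% to 3.83%) of single peaks in the same windows. These 29 are 1.99% of the 1454 broad autosomal peaks. The runs as a whole were longer than a typical broad peak: 311 of the 320 spanned at least 2000 bp, and their median of 3504 bp compares with a median width of 2360 bp of the broad autosomal peaks. A run joins at least 3 peaks and its span includes the gaps, so this length largely follows from the rule.

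Among the longest runs, 1 very wide peak often made up much of the length. On chromosome 10 (80249537 to 80256947) the right peak was 4228 bp wide in a run of 7411 bp, with scores of 39.7, 37.2 and 54.2. The widest member of all, 4378 bp, had a score of only 32.0 and opened a run of 7081 bp on chromosome 1 (182797664 to 182804744), where the other peaks had 35.4 and 44.2. A peak of 4123 bp opened a run of 7061 bp on chromosome 11 (116079554 to 116086614), with scores of 51.8, 53.7 and 30.5. In the run of 6351 bp on chromosome 1 (173428236 to 173434586), named above among the strong ones, the middle peak was 3530 bp wide. On chromosome 10 (79849086 to 79855996), in the run of 6911 bp also named above, the middle and right peaks were 2616 and 2760 bp wide. In the long runs of chromosomes 5 and 8 no peak was wider than 2327 bp. Those on chromosome 5 were a run of 4 spanning 6893 bp (139828097 to 139834989), with scores of 53.5, 48.6, 61.2 and 38.5, and a run of 3 spanning 6518 bp (23825340 to 23831857), with 35.3, 47.6 and 46.3. A run of 6552 bp on chromosome 8 (97431980 to 97438531) had 60.3, 46.3 and 77.4. Span and highest score had a Spearman rho of 0.22 across the 320 runs.

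The gaps inside runs were often very short. Of the 673 inner gaps, 107 (15.9%) were at most 100 bp and 400 (59.4%) at most 500 bp, with a median of 402 bp (interquartile range 169 to 674 bp) and a shortest gap of 2 bp. Gaps in joined pairs were alike, with a median of 398 bp and 15.7% at most 100 bp. Over all neighbouring autosomal peaks, the number of gaps per 100 bp fell from 749 in the shortest class to 359 between 801 and 900 bp. Beyond the joining limit, from 1001 to 3000 bp, it was nearly level, between 302 and 391 with a median of 348. Centres of neighbouring peaks in a run were a median of 1297 bp apart (interquartile range 992 to 1620 bp).

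Contrast between neighbours was much the same at every gap. Where the gap was at most 100 bp, the stronger of both peaks had a median of 49.7 and the weaker one of 34.3. At gaps above 100 and up to 300 bp these medians were 54.1 and 36.1, and above 600 bp they were 48.8 and 34.9. Neighbours with short gaps were somewhat wider, with a median summed width of 1765 bp at gaps of at most 100 bp and 1547 bp above 600 bp. Whether width and gap depend on each other was not tested.

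**Figure D4:**
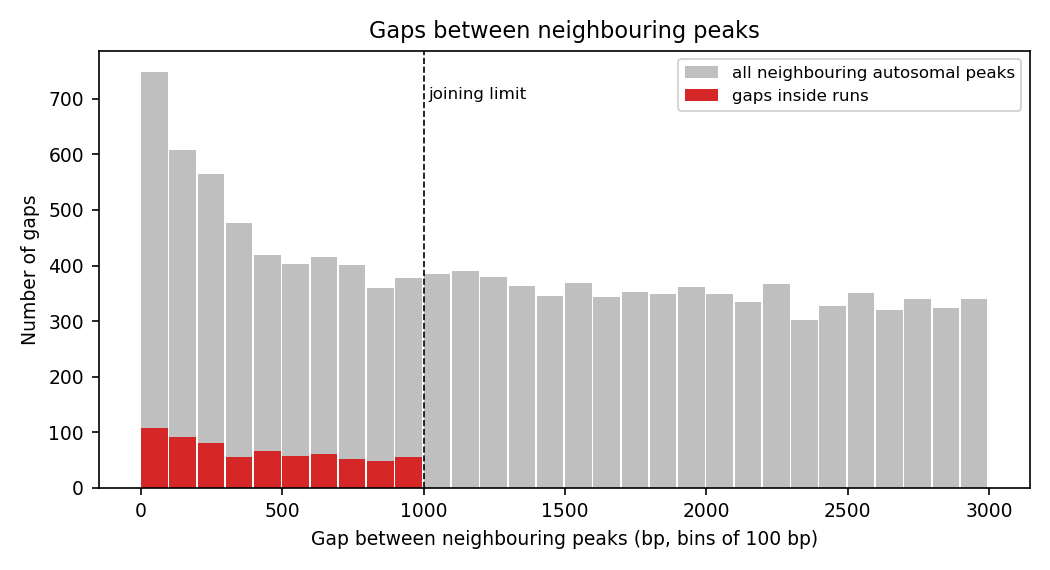
Number of gaps between neighbouring autosomal peaks in bins of 100 bp, for all neighbours (grey) and for gaps inside runs (red), with the joining limit of 1000 bp as a dashed line. Grey bars fall from 749 in the shortest bin and are level, between 302 and 391, beyond the limit.

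Runs of 4 peaks ranged from nearly closed to open. The tightest, on chromosome 5 (120751637 to 120754626), left only 337 bp unpeaked in 2990 bp, with scores of 34.3, 35.5, 46.0 and 36.8. Next came chromosome 17 (27873872 to 27878872) with 633 bp of gaps and scores of 42.4, 31.6, 38.8 and 40.4, and chromosome 9 (107329286 to 107334754) with 681 bp and scores of 41.6, 63.2, 36.8 and 38.3. The longest run, on chromosome 11, had 897 bp of gaps. On chromosome 6 (118025607 to 118030507), with 1000 bp of gaps, the inner peaks were 6 bp apart and had scores of 35.2 and 65.0, beside 32.6 and 39.1 at the ends. The most open runs of 4 had 1882 to 2169 bp of gaps. On chromosome 7 (150561553 to 150566535) there were 2169 bp of gaps between peaks of 46.2, 36.9, 33.2 and 34.0. A run on chromosome 11 (96197672 to 96202541) had 1948 bp of gaps and scores of 39.6, 43.6, 93.3 and 55.6. On chromosome 3 (145608968 to 145613841) there were 1934 bp and scores of 36.9, 44.8, 33.1 and 73.0. The run on chromosome 19 named above had 1891 bp of gaps, and one on chromosome 4 (129494779 to 129500224) had 1882 bp with scores of 34.9, 41.4, 76.2 and 71.3. Tight and open runs both held weak and moderate peaks, and in neither set were scores level.

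Outside its own ends, a run had about as many neighbours as a single peak in the same windows. Within 10 kb of the ends there was a mean of 1.10 other peaks per run, against 1.08 per single peak and 1.30 per joined pair. A flank of 10 kb free of other peaks was found at 32.5% of the runs (interval 27.6% to 37.8%) and at 35.9% of the single peaks (35.0% to 36.8%). Within 50 kb the means were 5.503 and 5.752. The nearest outside peak was a median of 7364 bp away from a run and 6953 bp from a single peak. Both kinds have no neighbour within 1000 bp by their definition, so this comparison is over the space beyond that limit.

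Runs were concentrated where peaks were dense. Windows of 1 Mb with a run held a median of 51 peaks (interquartile range 40 to 64), against 32 (21 to 42) in windows with peaks but no run. In windows of 1 to 20 peaks, 0.316% of peaks were members (interval 0.207% to 0.482%), and in windows of 21 to 40 it was 0.637% (0.556% to 0.729%). It was 1.31% (1.19% to 1.44%) in windows of 41 to 60 and 2.59% (2.30% to 2.92%) in windows of 61 to 80. In the 21 windows with 81 or more peaks it was 4.41% (3.56% to 5.44%), and 15 of these windows held a run. More close neighbours are found wherever peaks are dense, and no value here separates that from a tendency to form runs.

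By chromosome, the share of peaks that were members was highest on chromosome 11, with 36 runs and 2.13% (interval 1.78% to 2.55%). Chromosome 19 followed with 16 runs and 1.99% (1.51% to 2.62%), and chromosome 17 with 23 runs and 1.88% (1.49% to 2.37%), and these 3 intervals overlap. The lowest shares were on chromosome 3, with 10 runs and 0.633% (0.446% to 0.897%), chromosome 16, with 8 runs and 0.743% (0.5001% to 1.10%), and chromosome 7, with 11 runs and 0.788% (0.570% to 1.09%). Chromosomes 11, 19 and 17 also had the most peaks per Mb, at 45.5, 42.4 and 40.3, while chromosome 2 had a share of 1.46% (1.15% to 1.86%) with only 24.9 peaks per Mb. Members had a larger median width than the single peaks of their windows on 12 chromosomes, a smaller one on 6 and an equal one on 1. For the median score it was 9 higher and 10 lower.

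**Figure D5:**
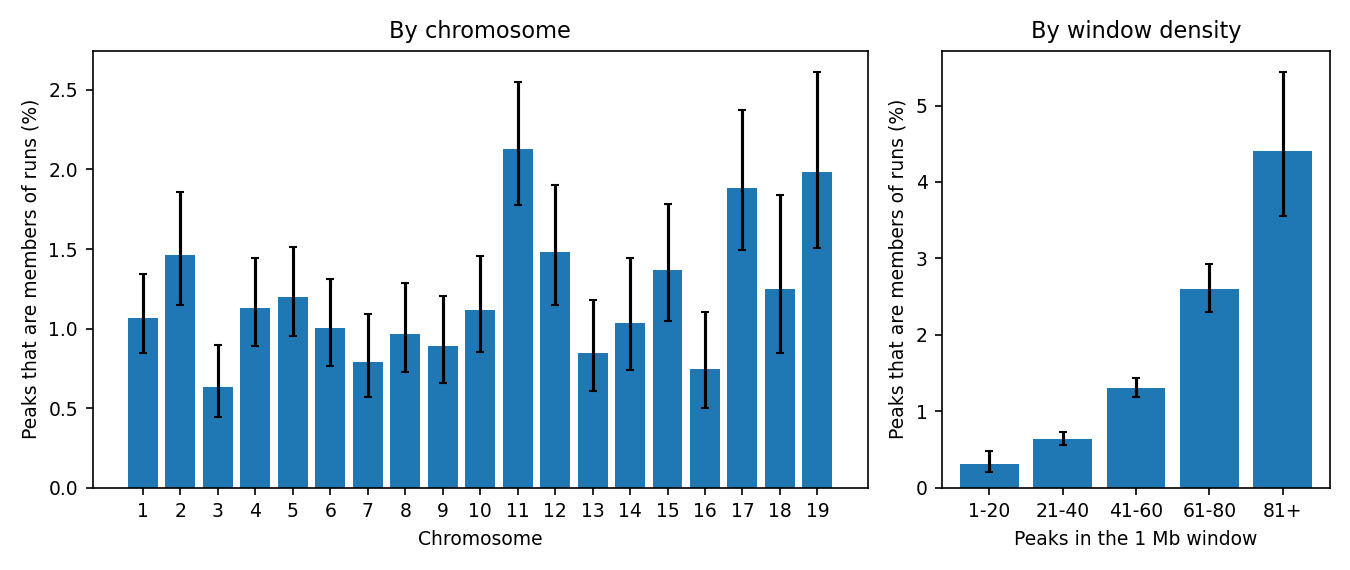
Percentage of peaks that were members of runs, by chromosome (left) and by the number of peaks in the 1 Mb window (right), with 95% Wilson intervals as error bars. Chromosomes 11, 19 and 17 are highest on the left, and the bars rise from 0.316% to 4.41% on the right.

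Of the windows with a run, 230 held 1, 36 held 2 and 6 held 3. The densest, on chromosome 10 from 79000001 to 80000000 with 122 peaks, held the strong run named above and 2 others. One (79166915 to 79172136) had scores of 37.0, 50.4 and 58.8, and the other (79767479 to 79772247) had 57.4, 66.3 and 44.7. In the adjoining window of chromosome 10 lay the runs closest to each other, only 2.516 kb apart. Their scores were 46.4, 36.7 and 57.9 (80391403 to 80396052) and 42.0, 31.7 and 40.6 (80398569 to 80404377), and the latter ended in a peak of 3353 bp. The remaining run there was the one of 7411 bp. In the densest window members had a median score of 57.4 and single peaks 50.4, and in the adjoining one the medians were 40.6 and 46.3.

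On chromosome 11, the window from 96000001 to 97000000 held the run of 6, the open run of 4 and another of 3 peaks (96648255 to 96651138) with scores of 65.0, 39.8 and 133.0. Together these 13 members had a median score of 48.2, against 42.6 in the window's 52 single peaks, and a median width of 628 bp against 756 bp. On chromosome 13, from 55000001 to 56000000, the median score was 65.8 in 9 members and 40.7 in 54 single peaks. Beside the runs of best score 151.7 and 131.8, this window held one (55310629 to 55314447) with 121.2, 44.1 and 30.4, so each of its runs had a peak above 100.

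In both other windows outside chromosome 10, members had a lower median score than single peaks. On chromosome 17 from 56000001 to 57000000, members had a median score of 33.8 and single peaks 42.0. The runs there had scores of 32.6, 50.6 and 33.1 (56858840 to 56864112), 35.1, 31.3 and 33.8 (56889127 to 56892015), and 32.8, 34.4 and 37.6 (56942370 to 56946416). On chromosome 12 from 113000001 to 114000000 the medians were 35.4 and 40.3. Its runs ranged from 96.6, 63.2 and 40.3 (113323606 to 113326199) through 35.4, 35.1 and 47.4 (113454341 to 113457543) to 33.3, 31.3 and 32.6 (113849813 to 113854285). Several runs in 1 window therefore went with high scores in some windows and with scores near the limit in others.

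The joining limit decides membership without a visible break. Just inside it, 50 runs of 154 peaks had a largest gap above 900 bp, with a median score of 39.3 and a median width of 724 bp. Just outside, 57 further runs of 173 peaks would form if gaps up to 1100 bp were joined, with a median score of 40.3 and a median width of 735 bp.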

How the data were processed

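The analysis used 1 list of peaks on mm9, called with MACS (version written as 1.42), per the submitters' processing notes. Not given in the sources used here were other caller settings, the aligner, read filters and tag numbers. The score of each peak was deposited by the authors without a header and was taken as a p-value on a negative log10 scale, multiplied by 10. That the list compares the ChIP library with the input was inferred from there being 1 library of each. Reads were 36 bp long, per the labels. Autosomal peaks were sorted by start and joined at gaps (next start minus previous end, in file coordinates) of at most 1000 bp. Windows were 1 Mb, by peak midpoint. Printed positions are 1-based.

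Shares have Wilson intervals and medians have distribution-free binomial intervals, at 95%. Intervals of differences in medians are approximate: they combine the widths of both medians' intervals and are symmetric about the difference. No test was made. The code for the joining and the medians was checked on simulated data, where all 1551 planted runs were recovered. Planted runs lay beyond the joining limit from other peaks, so their recovery says nothing on the choice of limit. Runs are named by these rules: 5 or more peaks, the 10 highest best scores, the 10 highest lowest scores, the 10 longest, the 5 smallest and 5 largest gap sums in runs of 4, and all runs in windows with the most runs. Beyond the rules, the closest pair of runs was named after its values were seen. Members and rules were chosen with earlier results of these data known. Genes and sequences were not given, because the tables at hand are of GRCm38.p6. Tools were pandas 2.3.3, numpy 2.4.6 and scipy 1.17.1 under Python 3.11.15, with matplotlib 3.10.9 for plots.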

Additional observations from a re-analysis of the deposited data

How the results depend on the processing

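The number of runs follows the joining limit. With gaps of at most 500 bp there were 118 runs of 361 peaks, and with gaps of at most 2000 bp 954 runs of 3045 peaks. Keeping only peaks with a score of at least 50 before joining left 10 runs of 31 peaks. At 500 bp the median score was 42.1, which is 1.93 above single peaks (interval -0.38 to 4.24), the median width 805 bp, and the shares at or above scores of 50 and 100 were 34.1% and 6.09% (single peaks 27.2% and 2.18%). At 2000 bp the share at or above 100 was 2.79%, against 1.77% in single peaks. The median score of 40.5 was 0.75 above single peaks (0.15 to 1.35), and the median width of 743 bp was 28 bp above (11.2 to 44.8). Both intervals leave out 0, but they are approximate, count every peak separately and are not a test. Among peaks of at least 50, members had a median score of 73.6 (9.56 above single peaks) and a median width of 1047 bp (114 bp above), and the middle peak was highest in 22.2% of runs of 3. These rest on 31 peaks. The cause of these shifts was not tested, beyond the fewer and stronger peaks that the score limit keeps by construction. The differences in medians between members and single peaks had intervals that include 0 in the reported setting and changed sign without chromosome 1 (score, -0.14), with windows of 500 kb (width, -3 bp) and without the runs of chromosomes 2 and 9 (score, -0.02). The share at or above a score of 100, with all its settings, and the omission of the runs of chromosomes 2 and 9, were chosen after seeing the data. In 32 of 49 recalculated values, the value stayed within the interval of the reported one, or, for counts, within 1.5 times. These include the changes of sign above and the differences in medians at 2000 bp. No library could be left out, as there is 1 per group. Unknown tag numbers limit every statement on weak peaks, and a gap inside a run only means that no peak was called there.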
